A study of Homo sapiens with 4 samples.

Results

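The genes described here encode urokinase-type and tissue-type plasminogen activator (PLAU and PLAT), the urokinase receptor (PLAUR), a plasminogen activator inhibitor (SERPINB2), the matrix metalloproteases MMP1, MMP2, MMP9 and MMP14, and the metalloprotease inhibitor TIMP1. They were taken by symbol, through every probe annotated to a RefSeq transcript of one of them, and made up 9 of the 20503 genes with a symbol on the array, at 10 probes. The rule uses no measured value, but the genes were proposed with earlier results of these data known. On the array labelled as MCF-10A cells after 48 h with the non-specific stapled-peptide, 5 of the 9 genes (PLAU, PLAUR, MMP2, MMP14 and TIMP1) were lower than on the stapled-peptide array of that time by between 5.60-fold and 77.1-fold, and MMP9 was 2.56-fold higher. Of all genes with a difference at 48 h, 19.8% were lower and 21.2% higher by 2-fold or more. At 24 h none of the 8 genes with a difference between the peptides reached 2-fold, while 1.87% of all genes did. The markers of the array with these differences go against its label as a basal mammary epithelial line, as given below, so every difference at 48 h is one between the arrays so labelled.

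MCF-10A is a spontaneously immortalized, non-tumorigenic line of human mammary epithelial cells of basal character. Cells received 10 µM of a stapled-peptide or of a non-specific stapled-peptide for 24 h or 48 h, and RNA from each of the 4 conditions was hybridized in 1 colour to 1 Agilent whole-genome array. A stapled peptide carries a hydrocarbon bridge between residues that holds it in a helix, and the peptides of the study were derived from the stretch of BIG3 that binds PHB2. The treatment label of the non-specific stapled-peptide (the non-specific peptide below) is control, no array of untreated cells was analysed here, and the labels do not settle which named analog of the study either peptide is.

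The plasminogen activators are serine proteases that cut plasminogen into plasmin, a broad protease that degrades fibrin and matrix proteins and activates several metalloproteases. Urokinase does this at the cell surface, bound to its receptor, and serpins stop both activators by trapping them. Matrix metalloproteases are zinc enzymes that cut collagens and other matrix proteins, are made as inactive precursors and are held in check by the TIMP proteins, and in mammary epithelium both systems take part in the remodelling of the basement membrane, in migration and in wound closure.

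Each value below is the log2 of a background-subtracted spot signal after quantile normalization over the 4 arrays, and a difference is the non-specific peptide minus the stapled-peptide, or 48 h minus 24 h. With 1 array per condition there is no spread between cultures and no test, so the precision given is that of the spots alone, either the SD over repeated spots of a probe or, for a probe with 1 spot, the median SD of repeatedly spotted probes of about the same signal. A probe was called well above background by the mark of the extraction software. Where 1 of the arrays compared lacked that mark, its signal was raised to the lowest well-marked signal on that array and the fold was written as at least that size. Levels of different probes are not set against each other.

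The non-specific peptide array at 48 h stood apart as a whole, with Pearson's r of 0.838 to 0.844 against the other 3 arrays, which had r of 0.987 to 0.988 among themselves. Each r was taken over the probes well above background on at least 1 array of the pair (32704 to 36193 probes). Signals without that mark were raised to the lowest well-marked signal of their array. Between 62.5% and 65.7% of the 58717 non-control spots were well above background on each array, and all 4 arrays lay on 1 slide. The summed normalized signal of 10 markers of basal mammary epithelium was between 93525 and 96346 on the other 3 arrays and 474 on this one, where 9 of the 10 were still well above background and KRT6A was not. Of those markers, 8 were lower by 2-fold or more at 48 h, while CDH1 (-0.31) and EPCAM (0.88) differed by less. TP63 (-1.01) was under 2-fold without normalization (-0.84) and under normexp, a background correction that raises low signals (-0.43), and EPCAM was over it without normalization (1.31). A list of 8 embryonic and neuronal genes, chosen like the other lists with earlier results of these data known, summed to between 223 and 253 on the other 3 arrays. On this array it summed to 69895, with 6 of 8 well above background. L1CAM (-0.58, a bound, and 0.11 at its other probe) and PAX2 (-0.59, a bound, and 3.89 at its other probe) were not. The same 6 were higher by 10-fold or more than with stapled-peptide at 48 h, where 6.56% of all genes differed that much in either direction. Markers of fibroblasts summed to between 29609 and 32085 on the other 3 arrays and 197 on this one. DCN (-9.15 at 48 h) gave nearly all of the sum on the other 3 arrays, while on this one COL1A1 (6.67) was brighter than DCN (5.73). Of the 5 fibroblast markers with a difference at 48 h, 3 were lower by 2-fold or more, DCN, PDGFRA (-2.12, a bound) and PDGFRB (-1.84, a bound). Under normexp only 1 was. COL1A1 differed by 0.13, LUM was well above background on the last array only, and COL1A2 and COL3A1 were so on none. The sums were 680 to 764 against 68.4 for 6 endothelial markers, with TIE1 and EMCN not above background on any array, and 1437 to 1517 against 296 for 5 leukocyte markers. These values moved with every difference at 48 h given below. Their part in those differences was not tested, nor was the identity of the sample behind this array, and a response to the peptide cannot be told apart from a sample of other cells. In bulk RNA, fewer cells of a type and less RNA per cell cannot be told apart.

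Across the 9 genes, 6 differed by 2-fold or more between the peptides at 48 h (PLAU, PLAUR, MMP2, MMP9, MMP14 and TIMP1), while 41.0% of all 17112 genes with a difference did so. Of these, 5 were lower with the non-specific peptide, against 19.8% of all genes, and 1 was higher, against 21.2% of all genes. PLAU, MMP2, MMP14 and TIMP1 differed by 10-fold or more, as did 6.56% of all genes, and none of the 9 reached the 100-fold threshold used in the study, which 0.947% of all genes passed. MMP2 enters these counts at its bound of at least 25.6-fold, so whether it passed 100-fold is not settled. The median difference of the 9 genes was -2.48 on the log2 scale, beside 0.03 over all genes. With 9 genes these shares move by 1 gene at a time, and no test of the group was made.

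**Figure D1:**
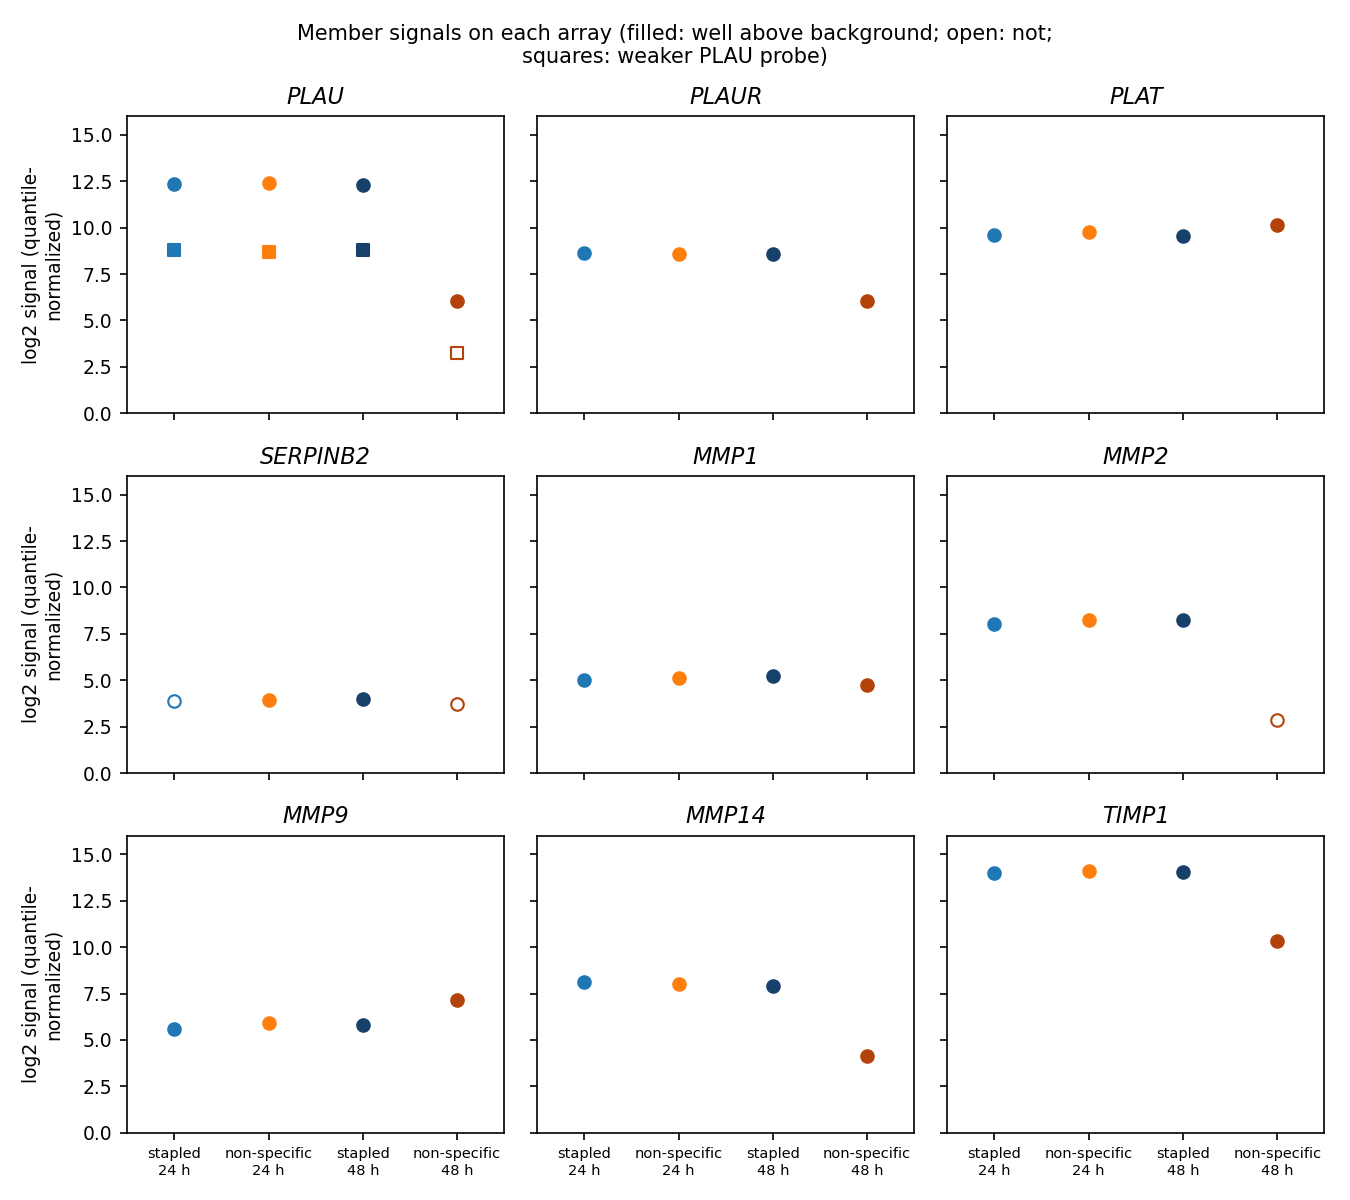
Quantile-normalized log2 signal (vertical axis) of each gene on the 4 arrays (horizontal axis), 1 point per array and probe. Filled points were well above background, open points were not, and squares show the weaker PLAU probe. In each panel the non-specific peptide array at 48 h lies outside the range of the other 3 arrays.

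PLAU, the gene of urokinase itself, was measured by a probe spotted 10 times. Its log2 signal was 12.36 (SD over spots 0.057) with stapled-peptide at 24 h, 12.42 (0.054) with the non-specific peptide at 24 h, 12.30 (0.039) with stapled-peptide at 48 h and 6.03 (0.096, 9 spots) with the non-specific peptide at 48 h. The first 3 arrays spanned 0.12, and the last lay far below all of them. The difference between the peptides was 0.05 at 24 h and -6.27 at 48 h, which is 77.1-fold lower. With the normexp correction the latter was -5.29. In the non-specific peptide series the signal was 83.6-fold lower at 48 h than at 24 h (-6.39), and in the stapled-peptide series the same step was -0.06. Before normalization the single spots lay between 6.03 and 6.27 on the last array and between 12.13 and 12.55 on the others. A second PLAU probe, directed at another transcript of the gene and present as 1 spot, gave 8.77, 8.72 and 8.79 on the first 3 arrays and lacked the well-above-background mark on the last (3.25). At 48 h both probes were lower, the second at least 37.3-fold, and at 24 h it differed by -0.06.

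PLAUR encodes the receptor that holds urokinase at the cell surface through a lipid anchor. Its probe read 8.66 and 8.60 with stapled-peptide and the non-specific peptide at 24 h, and 8.56 and 6.07 at 48 h. Across the first 3 arrays the span was 0.10, and the last was well above background but lower than each of them. The difference at 48 h was -2.48, or 5.60-fold lower, where repeatedly spotted probes of similar signal had a median SD between 0.069 and 0.12. At 24 h the difference was -0.06. Under a normexp background correction the difference at 48 h was -1.68. The 250 bases before the start of PLAUR are shown because genes of both protease systems are textbook targets of AP-1, the dimer of FOS and JUN proteins, whose own genes are described further on. They lie at chr19:43670170-43670419 on the minus strand (RefSeq, GRCh38.p14). Capitals mark the motif TGANTCA, which reads the same on both strands and here starts at position -186 from the gene start.

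PLAUR promoter: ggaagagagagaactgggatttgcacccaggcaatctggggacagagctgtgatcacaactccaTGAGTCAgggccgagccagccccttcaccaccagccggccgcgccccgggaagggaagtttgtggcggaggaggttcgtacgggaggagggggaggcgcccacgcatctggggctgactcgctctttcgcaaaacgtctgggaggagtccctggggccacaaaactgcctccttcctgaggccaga

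Of all 35116 RefSeq promoter windows of this length, 6.57% held the motif. Of the 9 genes, 5 matched the promoter table and MMP1, MMP2, MMP9 and PLAT did not. Both windows that the table gives for PLAU, each inside the annotated span of the gene, lacked these letters. A match describes the sequence and is not a binding site.

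PLAT, the tissue-type activator best known for dissolving fibrin clots, went the other way from PLAU by a smaller amount. Its 10 spots gave 9.58 (SD 0.087) with stapled-peptide at 24 h, 9.75 (0.075) with the non-specific peptide at 24 h, 9.55 (0.077) with stapled-peptide at 48 h and 10.16 (0.11) with the non-specific peptide at 48 h. The last array was highest, and its single spots before normalization (10.07 to 10.36) did not overlap those of the other 3 arrays (9.30 to 9.93). The difference at 48 h was 0.61, under 2-fold, and ranged from 0.50 to 0.83 over the processing alternatives. At 24 h it was 0.17, and 48 h minus 24 h was 0.40 with the non-specific peptide and -0.03 with stapled-peptide.

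SERPINB2, an inhibitor of both activators that is largely kept inside the cell, was near the limit of detection. Its log2 signal was 3.88 and 3.91 with stapled-peptide and the non-specific peptide at 24 h, and 3.98 and 3.70 at 48 h. Only the non-specific peptide at 24 h and the stapled-peptide at 48 h had it well above background, and all 4 values lay closer together than the median SD of repeatedly spotted probes at this signal (0.38 to 0.45). No difference was detectable at this signal, and no fold is drawn from it. Its window, at chr18:63887455-63887704 on the plus strand, also held the AP-1 motif (in capitals), at position -102 from the gene start, and is shown as the other window with a match.

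SERPINB2 promoter: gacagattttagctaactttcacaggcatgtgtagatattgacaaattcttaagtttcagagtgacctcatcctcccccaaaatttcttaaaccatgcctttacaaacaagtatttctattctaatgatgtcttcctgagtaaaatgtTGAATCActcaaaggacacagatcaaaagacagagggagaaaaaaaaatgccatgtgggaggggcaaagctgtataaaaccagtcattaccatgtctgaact

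MMP14 encodes a membrane-anchored metalloprotease that cuts collagen at the cell surface and activates the precursor of MMP2. It read 8.14 with stapled-peptide and 8.03 with the non-specific peptide at 24 h, and 7.91 and 4.15 at 48 h. Values on the first 3 arrays spanned 0.23 and the last was far below them, though still well above background. The difference was -3.76 at 48 h (13.6-fold lower), with a median SD of 0.37 for probes spotted repeatedly at the lower signal, and -0.11 at 24 h. The normexp correction, which raises low signals, gave -1.97. The window before its start, chr14:22836335-22836584 on the plus strand, is given to set a strongly lower gene beside PLAUR, and it lacked the motif.

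MMP14 promoter: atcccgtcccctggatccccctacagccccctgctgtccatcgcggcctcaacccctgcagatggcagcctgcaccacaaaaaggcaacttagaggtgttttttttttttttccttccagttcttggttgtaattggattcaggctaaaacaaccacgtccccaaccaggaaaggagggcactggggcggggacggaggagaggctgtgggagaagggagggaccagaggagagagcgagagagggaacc

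MMP2, the gelatinase that MMP14 activates, was at 8.05 and 8.26 with stapled-peptide and the non-specific peptide at 24 h and at 8.25 with stapled-peptide at 48 h. On the non-specific peptide array at 48 h its signal of 2.87 was not well above background. With that array raised to its lowest well-marked signal the difference was -4.68, so that MMP2 was at least 25.6-fold lower, and the difference of the signals as measured was -5.37. At 24 h the peptides differed by 0.21. Under the normexp correction the difference at 48 h was -2.21.

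MMP9, the other gelatinase, was the only one of the 9 genes to be higher by 2-fold or more. Its 10 spots gave 5.59 (SD 0.14) with stapled-peptide at 24 h, 5.89 (0.13) with the non-specific peptide at 24 h, 5.82 (0.092) with stapled-peptide at 48 h and 7.17 (0.040) with the non-specific peptide at 48 h. The last array was highest, with single spots (7.26 to 7.40) clear of those on the other 3 arrays (5.41 to 6.11). The difference was 1.35 at 48 h, or 2.56-fold, and 0.30 at 24 h. It fell under 2-fold with the normexp correction (0.86) and was 1.76 with no normalization between arrays. The 2 gelatinase genes thus moved in opposite directions between the peptides at 48 h.

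MMP1, the collagenase that opens fibrillar collagen, had a low signal. It was 5.03 (SD 0.11 over 8 spots) and 5.12 (0.20 over 9) with stapled-peptide and the non-specific peptide at 24 h, and 5.21 (0.26 over 9) and 4.72 (0.26 over 9) at 48 h. The last array was lowest, but its single spots (4.14 to 4.95 before normalization) overlapped those of the others (4.65 to 5.68). The difference at 48 h was -0.48, under 2-fold, and between -0.65 and -0.14 over the alternatives.

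TIMP1, a secreted inhibitor of most metalloproteases, had bright spots on every array. It read 13.99 with stapled-peptide and 14.08 with the non-specific peptide at 24 h, and 14.03 and 10.31 at 48 h. Values on the first 3 arrays spanned 0.09 and the last was far below them. The difference at 48 h was -3.73, or 13.2-fold lower. The median SD of repeatedly spotted probes at this signal was 0.048 to 0.059, and the alternatives kept the difference between -3.91 and -3.58. At 24 h it was 0.09. The window before its start, chrX:47582186-47582435 on the plus strand, lacked the motif and is printed as the remaining gene with a single window.

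TIMP1 promoter: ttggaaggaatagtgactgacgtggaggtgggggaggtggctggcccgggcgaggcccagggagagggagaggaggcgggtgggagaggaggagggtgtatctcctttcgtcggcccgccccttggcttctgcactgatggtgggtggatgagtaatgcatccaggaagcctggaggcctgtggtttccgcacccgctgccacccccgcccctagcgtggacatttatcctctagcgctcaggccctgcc

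No match means only that these letters are not in this window.

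**Figure D2:**
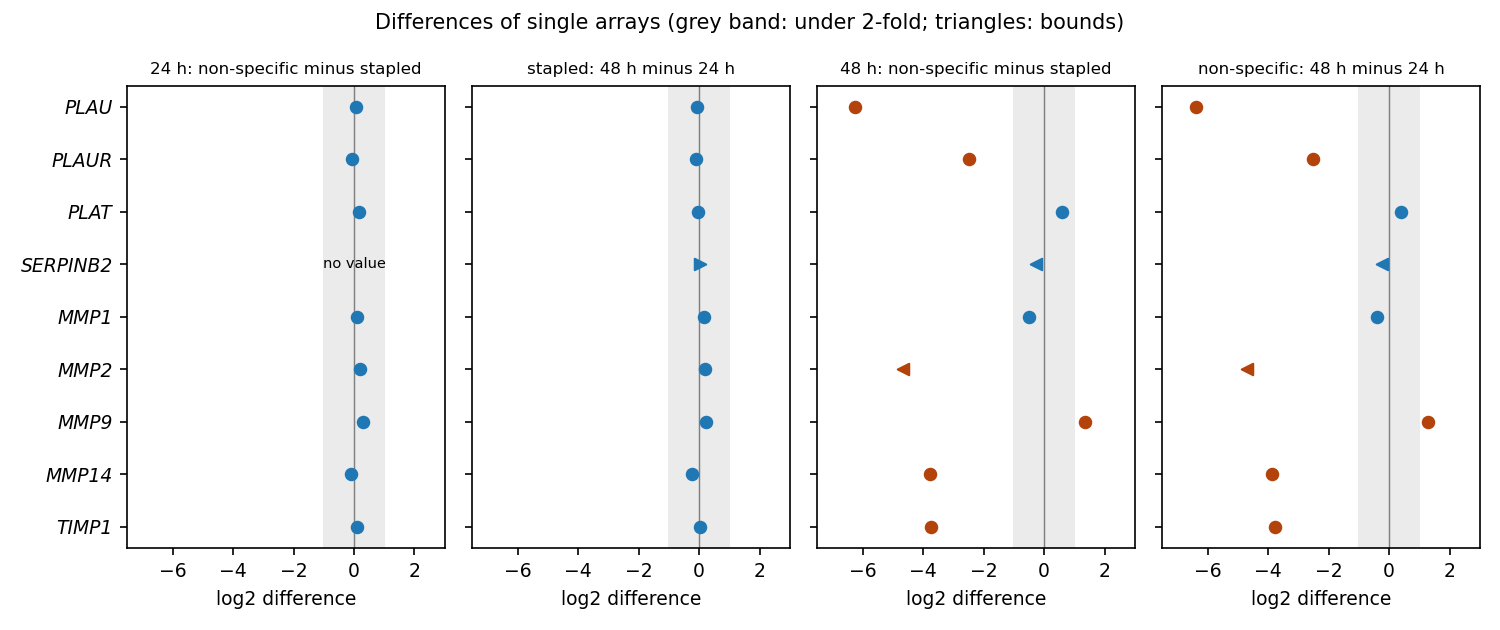
Log2 differences between single arrays (horizontal axes) of the 9 genes (vertical axis) in the 4 comparisons. The grey band marks differences under 2-fold, and triangles are bounds where 1 array was not well above background. All points lie inside the band at 24 h and within the stapled-peptide series, and 6 of 9 lie outside it in both comparisons that use the non-specific peptide array at 48 h.

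The other comparisons of the design ask whether the peptides already differed at 24 h and what time itself changed. Between the peptides at 24 h, 0 of 8 genes reached 2-fold (SERPINB2 gave no difference, being well above background on 1 of these arrays only and no brighter there than the limit of the other), while 1.87% of all 16228 genes did. The 8 differences ran from -0.11 (MMP14) to 0.30 (MMP9). Between 48 h and 24 h with stapled-peptide, 0 of 9 reached it, beside 2.06% of all 16138 genes, with differences from -0.23 (MMP14) to 0.23 (MMP9). With the non-specific peptide, 6 of 9 differed by 2-fold or more between 48 h and 24 h, beside 41.3% of all 17297 genes, and 4 of 9 by 10-fold or more, beside 6.50%. The median of the 9 genes in that comparison was -2.53, with MMP9 at 1.29, PLAUR at -2.53, TIMP1 at -3.78 and MMP14 at -3.88. Both comparisons with many differences share the non-specific peptide array at 48 h, so they are not independent of each other.

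**Figure D3:**
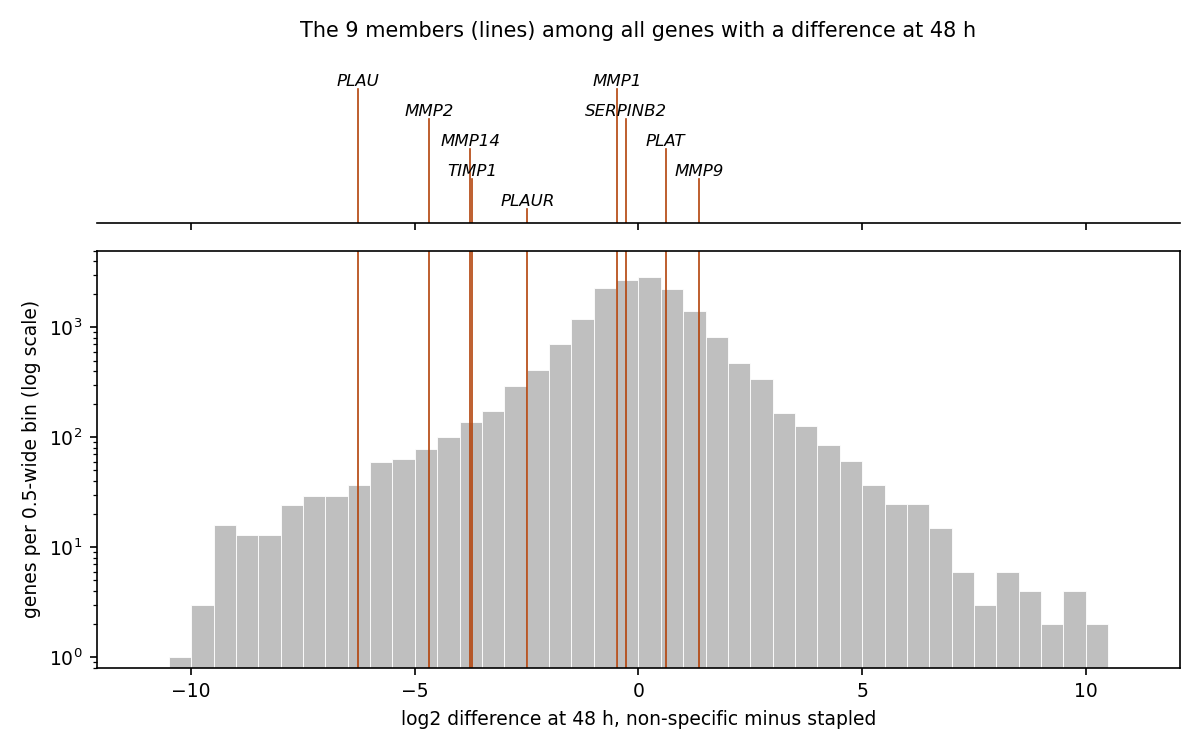
Number of genes (log axis) by log2 difference between the peptides at 48 h (horizontal axis, bins of 0.5), with a line at each of the 9 genes. PLAU (-6.27), MMP2 (at most -4.68), MMP14 (-3.76), TIMP1 (-3.73) and PLAUR (-2.48) lie in the lower tail, and MMP9 (1.35) lies on the upper side.

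Ranked among all 17112 genes with a difference at 48 h, PLAU was among the lowest 0.865%, MMP2 (by its bound) the lowest 1.96%, MMP14 the lowest 3.15%, TIMP1 the lowest 3.20% and PLAUR the lowest 6.35%. MMP9 was among the highest 14.9% and PLAT among the highest 31.1%. MMP1 lay inside the distribution, with 33.8% of genes at or below it, and SERPINB2, near background, is given no rank. The genes whose pattern over the 4 arrays was closest to that of PLAU, out of 17666 compared, were SLC43A3, S100A4 and ITGA3, at root mean square distances of 0.027, 0.045 and 0.048 on the log2 scale. For MMP9 they were UTP15 (0.022), SSUH2 (0.031) and SLF1 (0.032). SLC43A3 on the last array and SSUH2 on the stapled-peptide array at 24 h were not well above background and stood at the limit of that array, so their distances and places in the order are only nominal. All are distances over 4 values dominated by 1 array and carry no test.

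The rest of the plasminogen system was read from a list of 15 genes, of which 14 were on the array and 12 gave a difference at 48 h. Of the 12, 5 were lower by 2-fold or more, 1 was higher and 6 differed by less, with a median of -0.88, where 19.8% of all genes were lower and 21.2% higher. Under the 75th-percentile scaling 7 were lower, and under normexp the median was -0.23. SERPINE2, an inhibitor of urokinase, read 11.33 and 11.67 with stapled-peptide and the non-specific peptide at 24 h and 11.44 and 6.18 at 48 h, a difference of -5.26. ANXA2, which with S100A10 forms a surface docking complex for plasminogen and PLAT, read 15.55 under the stapled-peptide at 48 h and 10.69 under the non-specific peptide (-4.85), and its other probe gave -3.20. S100A10 (-3.29) and LRP1 (-2.84, and -1.33 at its other probe), the receptor that clears inhibited activators, were also lower, and F12, the contact factor, was the higher one (1.07). These last 3 were named after their values were seen. Neither PLG, the substrate plasminogen, nor HPN was well above background with either peptide at 48 h. Under the 75th-percentile scaling and the normexp correction no gene of this list was higher by 2-fold.

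Of 19 other metalloproteases on the array, 13 gave a difference at 48 h, of which 7 were lower by 2-fold or more, 0 were higher and 6 differed by less, with a median of -1.50, beside the same 19.8% and 21.2% of all genes. Without normalization 1 of the 13 was higher by 2-fold, and under normexp 5 were lower, with a median of -0.97. MMP7, the small epithelial metalloprotease matrilysin, read 7.72, 7.83 and 7.71 on the first 3 arrays and lacked the mark on the last (1.84), at least 17.7-fold lower. Of the 4 further inhibitor genes with a difference, TIMP2, which also takes part in the activation of MMP2 by MMP14, read 14.48 with stapled-peptide and 9.91 with the non-specific peptide at 48 h (-4.57). TFPI2 was higher (1.45, a bound, and 0.40 under normexp). TIMP3 differed by 0.93 (1.28 without normalization) and RECK by -0.90 (0.60 at its other probe), these 3 being named after their values were seen. At 24 h, 0 of 12 genes of the plasminogen list, 0 of 12 of the metalloprotease list and 0 of 4 of the inhibitor list reached 2-fold.

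Transcription factors of the AP-1 and ETS families, textbook regulators of PLAU and of several metalloproteases, were read from a list of 11 genes, all with a difference. At 48 h 7 were lower by 2-fold or more, 2 were higher and 2 differed by less, with a median of -3.00, where 19.8% of all genes were lower and 21.2% higher. Under normexp 6 were lower and 1 was higher, with a median of -1.38, and ETS1 (-0.75) and FOSB (0.76) were under 2-fold. JUN read 7.67 and 7.51 with stapled-peptide and the non-specific peptide at 24 h and 7.52 and 11.83 at 48 h, a difference of 4.31, while its family member JUNB was lower (-3.58). Of the FOS family, FOSL2 read 8.38 with the stapled-peptide and 5.03 with the non-specific peptide at 48 h, a difference of -3.35. FOS (-3.28) and FOSL1 (-3.00) were lower and FOSB was higher (2.08, a bound), these 3 being picked out with their values known. ETV5, an ETS factor, read 7.62 with stapled-peptide at 48 h and was not well above background with the non-specific peptide, at least 16.7-fold lower. JUN thus stood opposite to JUNB, FOSL2 and ETV5, and at 24 h 0 of the 11 reached 2-fold. Whether these levels bear on the protease genes was not tested.

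**Figure D4:**
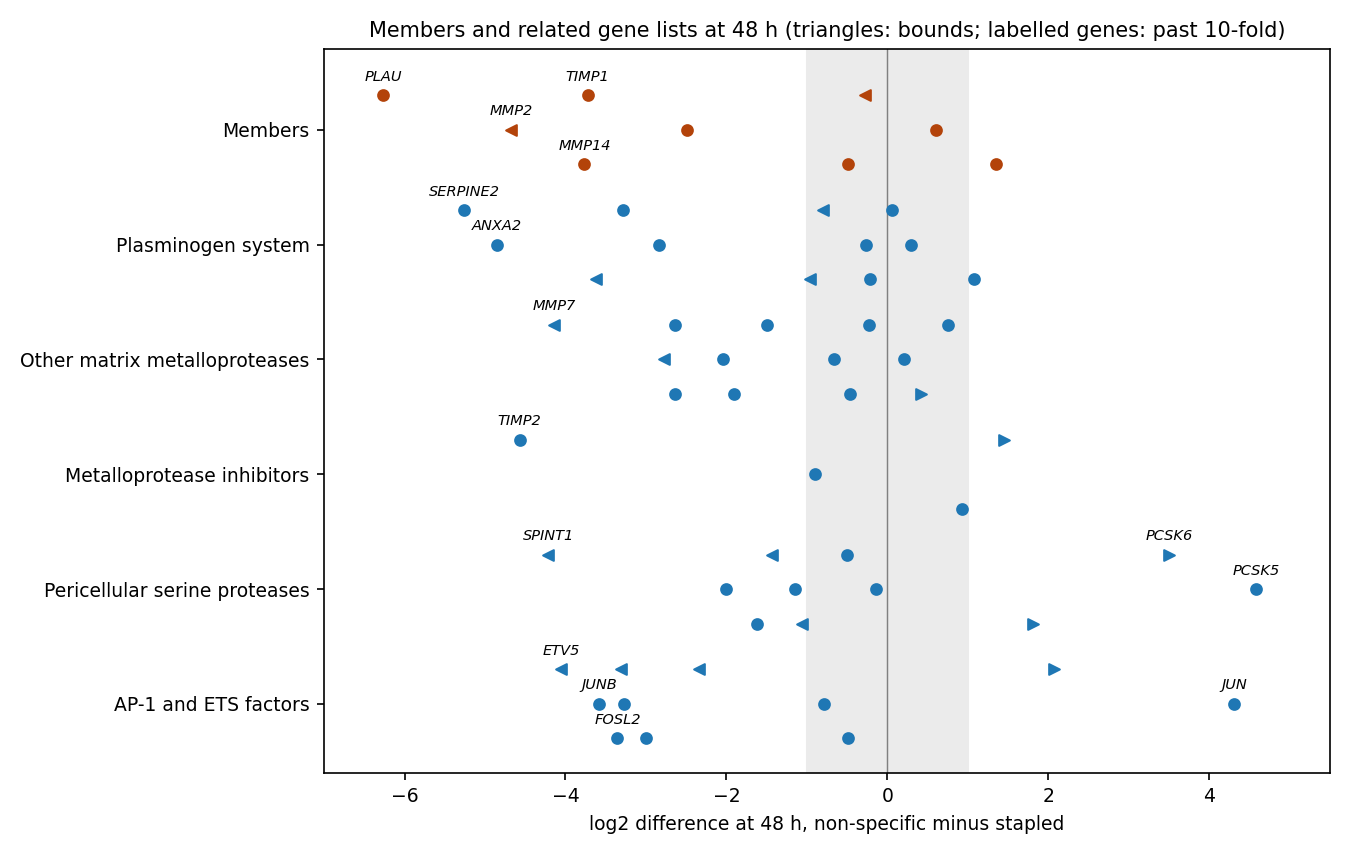
Log2 difference between the peptides at 48 h (horizontal axis) of the 9 genes and of the genes of the related lists (vertical axis, points spread within a list for legibility). The grey band marks differences under 2-fold, triangles are bounds, and the labelled genes are ones that differ by 10-fold or more. Most labelled genes lie on the lower side, and JUN (4.31), PCSK5 (4.59) and PCSK6 lie on the higher side.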

How the data were processed

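RNA of MCF-10A cells under 4 conditions was measured on 4 Agilent 1-colour arrays. The deposited files hold, per spot, linear intensity values that the authors obtained with Agilent Feature Extraction, background-subtracted and not normalized between arrays. The file headers give version 10.7.1.1, and the submitters' processing notes give 9.5. The deposited series table matched the spot means within 0.1% for 98.6% to 98.7% of probes and served as an alternative.

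Control spots and spots marked as outliers were left out, the remaining spots of each probe were averaged as log2 signals, and quantile normalization over the 4 arrays, the normalization that the methods of the study name, was applied with signals held at 1 or above. A probe was well above background when over a fraction of 0.5 of its spots carried that mark. A gene was read at its probe with the highest mean signal. Symbols came from RefSeq accessions, which named 28174 of 50599 probes, and the promoter windows of 250 bases came from RefSeq. The number of arrays limits the precision, and no test between single arrays was possible.

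The 9 genes and all lists were chosen with earlier results of these data known. All 9 genes were named at every probe, as were genes of the lists that differed by 10-fold or more at 48 h, except 1 that is not reported here, and for the genes with the largest difference in each direction the 3 closest patterns. The lists were further plasminogen system genes, other metalloproteases, metalloprotease inhibitors, pericellular serine proteases, AP-1 and ETS factors, and 5 marker lists. Alternatives were the 75th-percentile scaling, no normalization, normexp (limma 3.58.1 in R 4.3.3, offset 50), no bound, only probes with that mark on both arrays, outlier spots kept, saturated probes left out, the deposited table, the mean over probes, a 10-fold threshold, and normalization over 3 arrays. Python 3.11.15, numpy 2.4.6, pandas 2.3.3 and matplotlib 3.10.9 were used. The steps were tested on simulated data of 50590 probes for the comparison at 48 h, where 100 of 100 probes changed by 8-fold were recovered. In the data 41.0% of genes differed by 2-fold or more at 48 h, and the simulation did not cover changes in so large a share.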

Additional observations from a re-analysis of the deposited data

Results flagged for a closer look

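For 4 of the 9 genes the difference between the peptides had opposite signs at 24 h and 48 h, and with 1 array per condition the change between the times was not tested. PLAU differed by 0.05 at 24 h and -6.27 at 48 h, a change of -6.32 on the log2 scale, but the sign at 24 h rests on its brighter probe, since the other gave -0.06 and the mean over probes was -0.0012. For MMP2 the values were 0.21 and -4.68 (a bound), a change of -4.89. For TIMP1 they were 0.09 and -3.73, a change of -3.82, and for MMP1 0.10 and -0.48, a change of -0.58 in a gene whose spots overlapped between the arrays. Each difference at 24 h was smaller than the SD of 0.34 of all genes' differences at that time.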

How the results depend on the processing

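No paired analysis was possible because each condition has 1 array and the labels carry no replicate numbers, and for the same reason no replicate could be left out. The median difference of the 9 genes at 48 h was -2.48 and became -1.68 with the normexp correction, the cause of which was not tested. The number of genes past 2-fold at 48 h was 6, and 5 with normexp, where MMP9 (0.86) dropped under 2-fold, and 5 of 7 counting only probes well above background on each array compared, where MMP2 has no value. For time under the non-specific peptide it was 6, with 5 under those same settings. At 24 h and within the stapled-peptide series it stayed at 0 in every alternative, and none of the 9 genes passed 100-fold in any. For MMP2, not well above background on the non-specific peptide array at 48 h, this does not settle the fold. No value past 2-fold turned its direction, while 48 h minus 24 h with the stapled-peptide turned without normalization for MMP1 (0.18 to -0.22), MMP2 (0.20 to -0.014), MMP9 (0.23 to -0.11) and TIMP1 (0.04 to -0.19), and for MMP1 also under the 75th-percentile scaling (-0.0065). PLAU at 24 h turned as the mean over probes (0.05 to -0.0012). Of the single values, 11 of 35 moved by more than 0.34, the SD of all genes' differences at 24 h, with normexp, 4 of 34 without normalization, 2 of 35 without the bound, 2 of 35 as means over probes (PLAU -5.75) and 1 of 34 under the 75th-percentile scaling. No value moved that far in the other alternatives run. Among these, leaving out saturated probes could change nothing, because no non-control spot was saturated on any array. Genes past 2-fold at 48 h were higher in 51.7% of cases and, without normalization, in 62.6%, with the median of all genes at 0.26 in place of 0.03. Low signals limit MMP1, MMP2, MMP14 and SERPINB2. They also limit MMP9, which read 5.59 to 5.89 on all arrays except the non-specific peptide array at 48 h. On that array PLAU (6.03) and PLAUR (6.07) were low too, and with normexp their differences at 48 h moved to -5.29 and -1.68.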

Other observations

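Pericellular serine proteases and their inhibitors were read from a list of 14 genes. Of these, 11 gave a difference, of which 6 were lower and 3 higher by 2-fold or more with the non-specific peptide at 48 h, where 19.8% of all genes were lower and 21.2% higher, with 4 lower without normalization and 2 lower and 2 higher under normexp. SPINT1, a Kunitz inhibitor of matriptase, read 7.78 with stapled-peptide and was not well above background with the non-specific peptide, at least 18.5-fold lower. PCSK5 and PCSK6, convertases that cut precursor proteins, were higher. PCSK5 read 4.65 and 9.23 at 48 h (4.59), but its other probes differed by -0.58 to 1.44. PCSK6 was at least 11.3-fold higher at 48 h, with 7.68 on the non-specific peptide array, and was the 1 gene of the lists past 2-fold at 24 h (1.96, a bound).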
